A study of Mus musculus with 11 samples.

Results

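Chromatin accessibility was described at 34 listed genes of the nuclear receptor family, out of 21924 protein-coding genes in the annotation. The genes are the thyroid hormone receptors (Thra, Thrb), the retinoid receptors (Rara, Rarb, Rarg, Rxra, Rxrb, Rxrg), the PPARs (Ppara, Ppard, Pparg), the clock-linked receptors (Nr1d1, Nr1d2, Rora, Rorb), the sterol and bile acid receptors (Nr1h2, Nr1h3, Nr1h4), Vdr, the NR2 orphan receptors (Nr2c1, Nr2c2, Nr2f1, Nr2f2, Nr2f6), the estrogen-related receptors (Esrra, Esrrb, Esrrg), the corticosteroid receptors (Nr3c1, Nr3c2), the NR4A genes (Nr4a1, Nr4a2, Nr4a3), Nr5a2 and Nr6a1. A peak belonged to a gene when it overlapped the gene body or lay within 10 kb of one of its transcription start sites (TSSs, mm10). This rule gave 403 of 153396 peaks. Of these, 50 lay within 500 bp of a TSS of the gene and are called promoter peaks, and 353 are called other peaks. All 34 genes had a promoter peak, 13 of them more than 1, and Nr2c2 alone had no other peak. A single peak belonged to both Nr1d1 and Thra, and the Rxrb promoter peak lay nearest to the start of its neighbour Slc39a7. Of the other peaks, 290 were in introns, 15 in coding exons, 8 in exons with untranslated sequence and 40 outside the gene body. Long genes held many of them, with 51 at Esrrg (606 kb), 35 at Nr3c2 (346 kb) and 31 at Rarb (388 kb).

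Accessibility was measured by ATAC-seq, in which a transposase cuts and tags open chromatin. Cells came from the mammary glands of 5-week-old C57BL/6 mice carrying an Ecad-GFP reporter. Terminal end buds (TEBs), the club-shaped structures at which ducts lengthen in puberty, were dissected away from the ducts behind them. Lineage-depleted CD29+ CD24+ cells were then sorted by the GFP level into basal (Ecad-GFP low) and luminal (Ecad-GFP high) cells. The groups were basal TEB (3 libraries), basal duct (2 libraries, replicates 1 and 3), luminal TEB (3) and luminal duct (3). All groups carried the reporter. The study discarded a further basal duct sample for low cell number, the labels do not say which libraries came from the same animals, and the luminal gate was not divided into progenitor and mature cells.

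Nuclear receptors are transcription factors, many of them switched by small lipid-soluble ligands such as thyroid hormone, retinoic acid, vitamin D, fatty acids, oxysterols and corticosteroids. Most of the receptors for dietary and metabolic ligands bind DNA as heterodimers with an RXR, often at repeats of the core AGGTCA, whereas corticosteroid receptors bind as dimers to palindromes. Orphan members have no agreed physiological ligand, and the NR4A genes are induced within minutes of many stimuli. In the mammary gland, vitamin D and glucocorticoid receptors are known for roles in ductal growth and in milk production.

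Counts in peaks ran from 1821942 to 2489582 per basal TEB library, were 6816197 and 9986384 in the basal duct libraries, and ran from 2960093 to 3738324 per luminal TEB library and from 4650216 to 5561051 per luminal duct library. The median member promoter peak held 31 to 45 reads in basal TEB libraries, 159 and 239 in basal duct libraries, 47 to 61 in luminal TEB libraries and 80.5 to 106 in luminal duct libraries. For other peaks the median was 5 reads in every basal TEB library, 15 and 19 in basal duct, 10 to 12 in luminal TEB and 14 to 16 in luminal duct libraries, so a change at a weak peak of basal TEB cells was often not detectable at this depth. Levels below are CPM, the counts in a peak per 1000000 counts in all peaks of the library, scaled with TMM factors over 11 libraries. The summed promoter level of 7 basal markers was 111 to 161 CPM in basal TEB, 223 to 247 in basal duct, 32.4 to 37.4 in luminal TEB and 27.4 to 32.5 in luminal duct libraries, and that of 7 luminal markers was 61.9 to 71.8, 117 to 132, 229 to 282 and 245 to 306 CPM in the same groups. The 4 of 7 fibroblast markers with a promoter peak summed to 42.4 to 52.4 CPM in basal TEB, 84.7 to 99.9 in basal duct, 12.5 to 18.9 in luminal TEB and 19.1 to 19.8 in luminal duct libraries, while Col1a1, Col3a1 and Lum had no promoter peak. The 2 of 5 endothelial markers with a promoter peak summed to 17.6 to 22.5, 25.2 to 28.7, 4.92 to 7.57 and 4.45 to 7.31 CPM in the same groups, and Pecam1, Cdh5 and Tek had none. Markers of 4 further cell types were summed for the same groups. For immune cells (2 of 5 with a promoter peak) the sums were 5.62 to 9.78, 11.3 to 13.2, 9.29 to 14.5 and 12.5 to 14.2 CPM, and for adipocytes (1 of 5) 0 to 3.99, 2.39 to 5.24, 0.329 to 0.823 and 0.636 to 1.29 CPM. For pericytes (2 of 4) they were 9.75 to 18.4, 18.9 to 22.1, 9.02 to 11.9 and 6.66 to 10.8 CPM, and for Schwann cells (2 of 4) 21.5 to 34, 42.2 to 44.6, 21.4 to 23.0 and 20.4 to 28.8. The fibroblast and endothelial lists were higher in the basal libraries of both structures, and the adipocyte, pericyte and Schwann lists in the basal libraries of the ducts, and their part in the basal against luminal results was not tested. More open chromatin in each cell and a larger share of cells with an open site cannot be told apart in such sorted pools.

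**Figure D1:**
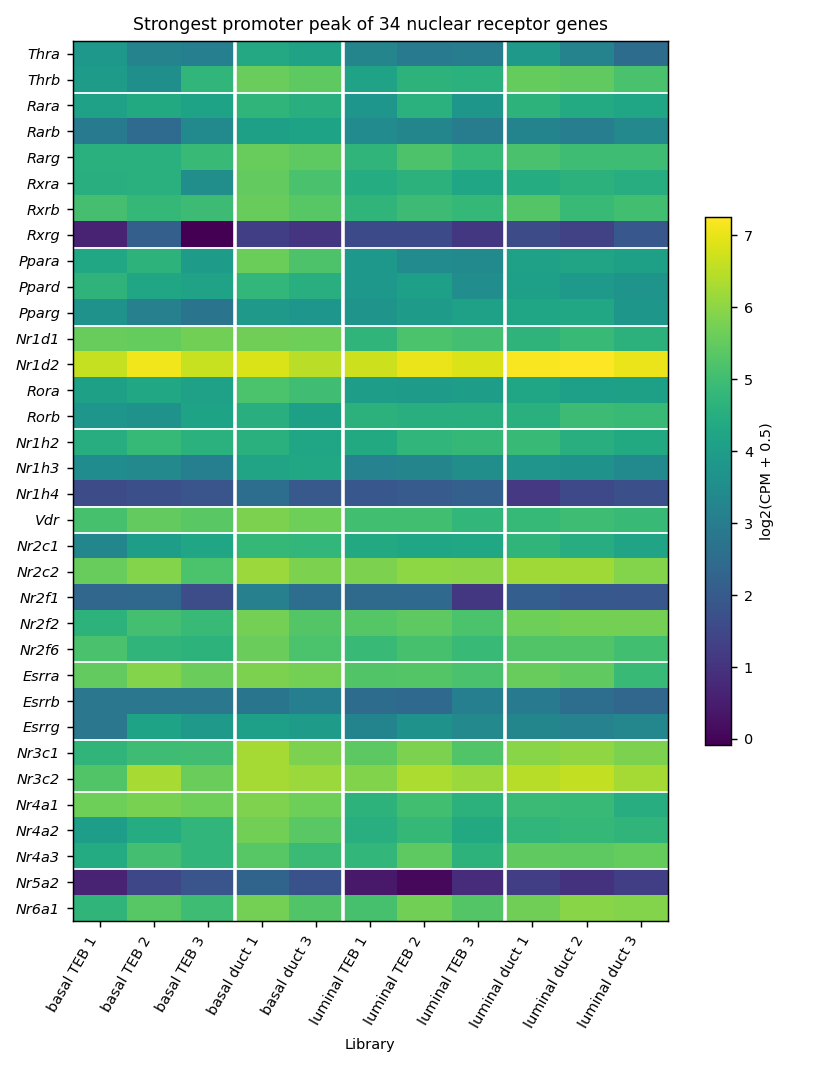
Level of the strongest promoter peak of each of the 34 genes (rows, in the receptor groups of the text) in each of the 11 libraries (columns), as log2 of CPM plus 0.5. Nr1d2 was the brightest row, and Rxrg and Nr5a2 were near the floor in every library.

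For each gene the strongest promoter peak, the one with the highest mean log2 CPM, stands for its promoter. Nr1d2, which encodes the clock repressor REV-ERBβ, had the highest level, at 97.6, 138 and 99.7 CPM in basal TEB, 115 and 89.2 in basal duct, 104, 131 and 116 in luminal TEB, and 146, 153 and 132 in luminal duct libraries. At the other end, Rxrg had 0.443 to 3.91 CPM in basal TEB, 1.54 and 1.94 in basal duct, 1.65 to 2.47 in luminal TEB and 2.05 to 3.22 in luminal duct libraries. Nr5a2, the receptor LRH-1, lay in the same range, with 1.02 to 3.10 CPM in basal TEB, 4.33 and 2.93 in basal duct, 0.546 to 1.32 in luminal TEB and 1.49 to 1.93 in luminal duct libraries. Over all 50 member promoter peaks, weaker ones of a gene included, mean levels spanned 0.937 to 112 CPM in basal TEB and 1.74 to 102 CPM in basal duct cells.

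Between lineages in the ducts, most member promoters that differed were more open in basal cells. Of 50 member promoter peaks, 24 (48%) were higher in basal than in luminal cells and 4 (8%) were lower (edgeR exact test, FDR 0.05), where 43.8% of all promoter peaks were higher and 12% lower, so the members were near the background. The balance of directions depends on scaling: with factors taken from promoter peaks 15 were higher and 11 lower. With factors taken within GC bins, in edgeR's quasi-likelihood test in place of the exact test, 12 were higher and 14 lower. The median log2 fold change of the members was 0.43, against 0.35 over all promoter peaks, and the members' median was 0.10 with factors from promoter peaks and -0.016 with GC-bin factors. Counting only the strongest promoter peak per gene, 17 of 34 were higher and 4 lower, where 43.2% of all genes were higher and 11.1% lower.

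Ppara, the fatty acid receptor that governs fat oxidation in liver, had the largest fold change and the smallest p among the strongest promoter peaks. At chr15:85734279-85736081 it had 47.9 and 36.7 CPM in basal duct libraries, against 16.8, 18.1 and 16.6 CPM in luminal duct libraries. Every basal duct library was above every luminal duct library (log2 fold change 1.24 ± 0.18 SE, adjusted p = 3.69e-12). Nr4a1, the immediate-early receptor NUR77, had 56.7 and 49.8 CPM at chr15:101266091-101267361 in basal duct libraries, against 29.9, 28.9 and 22.1 CPM in luminal duct libraries (0.92 ± 0.16, adjusted p = 5.28e-08). The circadian repressor gene Nr1d1, at chr11:98775198-98776146, had 50.5 and 49.3 CPM in basal duct libraries, against 25.4, 29.1 and 24.5 CPM in luminal duct libraries (0.86 ± 0.07, adjusted p = 3.23e-07). Its clock partner Rora, at chr9:69289264-69290761, had 35.9 and 31.9 CPM in basal duct libraries, against 18.7, 16.0 and 16.6 CPM in luminal duct libraries (0.93 ± 0.10, adjusted p = 3.81e-07). The groups did not overlap for any of these 3 genes, and all 4 calls held under every alternative scaling. Here and below, peaks were named for their p or their values, so groups without overlap describe the levels and add no support. The share of all peaks without overlap was not counted. A second, weaker Nr4a1 promoter peak (chr15:101253566-101254765), chosen after its values were seen, had a larger fold change and a smaller p than Ppara. It had 33.8 and 27.1 CPM in basal duct libraries, against 10.2, 9.14 and 7.09 CPM in luminal duct libraries (1.73 ± 0.21, adjusted p = 2.29e-17). The retinoid genes Rarb, Rarg and Rxra, the thyroid receptor gene Thra, Ppard, Vdr, Nr4a2, Nr1h3, Nr1h4, Nr2f1, Esrra, Esrrg and Nr5a2 were also higher, with log2 fold changes of 0.38 (Esrra) to 0.99 (Nr5a2).

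Nr1d2, Rorb, Nr6a1 and Nr4a3 were the 4 genes whose strongest promoter peak was lower in basal duct cells. Nr1d2 was lower by 0.55 ± 0.18 on the log2 scale (log2 fold change -0.55, adjusted p = 0.0003), with the levels given above. Rorb, a receptor best known from retina and brain, had 22.9 and 16.6 CPM in basal duct libraries, against 23.3, 30.2 and 28.4 CPM in luminal duct libraries (-0.52 ± 0.24, adjusted p = 0.0068). Nr6a1, a repressor of pluripotency genes in the embryo, had 52.3 and 37.7 CPM in basal duct libraries, against 50.3, 61.4 and 59.1 CPM in luminal duct libraries (-0.39 ± 0.24, adjusted p = 0.0197). The NR4A gene Nr4a3 had 40.7 and 29.6 CPM in basal duct libraries, against 43.5, 43.1 and 45.8 CPM in luminal duct libraries (-0.38 ± 0.22, adjusted p = 0.0267). Basal duct and luminal duct libraries overlapped for Nr6a1 only, and the difference was small beside that of Ppara. Basal duct replicate 3 decided these calls: without it the adjusted p was 0.104 for Nr1d2, 0.313 for Rorb, 0.548 for Nr6a1 and 0.578 for Nr4a3. Leaving out luminal duct replicate 2 also ended the calls of Rorb (adjusted p = 0.106), Nr6a1 (0.194) and Nr4a3 (0.109), and leaving out luminal duct replicate 1 that of Nr4a3 (0.103).

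In the end buds fewer promoters differed between the lineages, where libraries were shallower. Of 50 member promoter peaks, 4 were higher in basal TEB than in luminal TEB cells, where 10.4% of all promoter peaks were higher, and 5 were lower, where 14.7% were. With factors taken from promoter peaks 7 were higher and 3 lower. The 9 calls fell to 5 without basal TEB replicate 3 or luminal TEB replicate 1, to 3 without luminal TEB replicate 2 and to 2 without luminal TEB replicate 3. Nr4a1 had 49.1, 54.8 and 49.2 CPM in basal TEB libraries, against 24.7, 32.2 and 24.4 CPM in luminal TEB libraries (0.91 ± 0.14, adjusted p = 0.000565). The groups did not overlap, the fold change was close to the 0.92 of the ducts, and the call held with each library left out. Ppara had 18.9, 25.0 and 15.1 CPM in basal TEB libraries, against 13.7, 10.4 and 10.2 CPM in luminal TEB libraries (0.79 ± 0.24, adjusted p = 0.0233). Nr1d1 had 46.0, 45.4 and 51.0 CPM in basal TEB libraries, against 25.8, 35.8 and 32.9 CPM in luminal TEB libraries (0.59 ± 0.15, adjusted p = 0.0339). Neither gene's groups overlapped. The Ppara call was lost without basal TEB replicate 2 (adjusted p = 0.136) or luminal TEB replicate 2 (0.125) or 3 (0.13), and the Nr1d1 call without basal TEB replicate 3 (0.103) or luminal TEB replicate 1 (0.224), 2 (0.0639) or 3 (0.0999).

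Rorb and the glucocorticoid receptor gene Nr3c1 had lower strongest promoter peaks in basal TEB than in luminal TEB cells. Rorb had 13.3, 12.1 and 17.7 CPM in basal TEB libraries, against 24.1, 22.7 and 23.1 CPM in luminal TEB libraries (-0.69 ± 0.16, adjusted p = 0.0324). Nr3c1 had 26.1, 30.9 and 31.5 CPM in basal TEB libraries, against 41.7, 55.5 and 37.9 CPM in luminal TEB libraries (-0.60 ± 0.19, adjusted p = 0.0372). Groups did not overlap for either gene. Each call was lost in 5 of the 6 fits that left out a library: the adjusted p was 0.0616 to 0.117 for Rorb without basal TEB replicate 1 or 2 or any luminal TEB library, and 0.0516 to 0.277 for Nr3c1 without basal TEB replicate 1 or 3 or any luminal TEB library. Across both structures, 4 member promoter peaks were higher in basal cells of both (of 24 in ducts and 4 in TEBs) and 1, that of Rorb, was lower in both (of 4 and 5). Shared calls were not counted over all promoter peaks.

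The Nr4a1 promoter is shown because the lineage difference of its strongest peak was of similar size in TEBs and ducts. At the second Nr4a1 promoter peak it was 0.99 in TEBs and 1.73 in ducts. The sequence is the 250 bases before the RefSeq start (GRCm38, chr15:101266596-101266845, plus strand), and capitals mark a match to GGAATG, the core bound by TEAD factors, read on the other strand. Matches on either strand occurred in the 250 bases before the start of 12.6% of 32851 RefSeq promoters, among which 32 of the 34 members had an entry.
Nr4a1 promoter: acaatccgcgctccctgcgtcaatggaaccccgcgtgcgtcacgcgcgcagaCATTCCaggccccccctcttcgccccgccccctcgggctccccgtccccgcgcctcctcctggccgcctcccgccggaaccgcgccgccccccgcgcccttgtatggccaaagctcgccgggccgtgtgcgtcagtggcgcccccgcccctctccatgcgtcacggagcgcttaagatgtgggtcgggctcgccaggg

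Between TEB and duct in the basal lineage, member promoters moved with promoters in general. Of 50 member promoter peaks, 18 (36%) were lower in basal TEB than in basal duct cells, where 31.9% of all promoter peaks were lower, and 0 were higher, where 0.673% were (edgeR, and 0 also at an unadjusted p under 0.05 and by DESeq2). The median log2 fold change was -0.64 for the members and -0.64 for all promoter peaks, and over all promoter peaks it was -0.52 with DESeq2's size factors, -0.18 with loess offsets, -0.21 with GC-bin factors and 0.02 with factors taken from promoter peaks. For the members it was -0.51, -0.18, -0.0089 and 0.026 under the same settings, and -0.39 without basal duct replicate 1. With factors from promoter peaks, 3 member promoter peaks were higher (Nr1d2, Nr1h2 and Nr4a1) and 0 lower, so the direction of the group depends on the scaling. Without basal duct replicate 1 the count was 0, and without basal duct replicate 3 it was 6. Removing a basal duct library leaves 1, which is then assumed to vary like the basal TEB libraries.

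**Figure D2:**
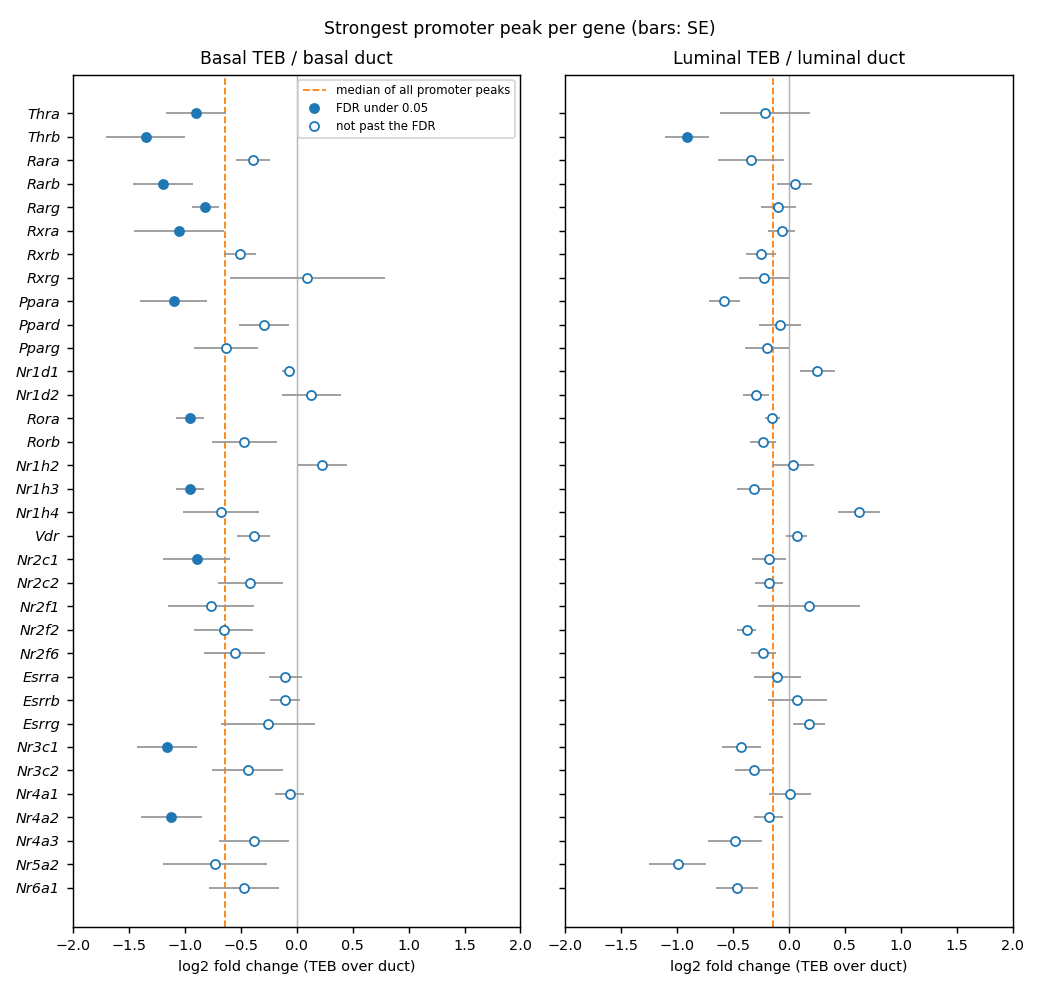
Log2 fold change (x axis, TEB over duct, bars SE) of the strongest promoter peak of each of the 34 genes, in basal cells (left) and luminal cells (right), with filled points past FDR 0.05 and a dashed line at the median of all promoter peaks, which lay at -0.64 in basal and -0.15 in luminal cells. Thrb was the only gene filled in both panels, and the basal points scatter about a line that moves to 0.02 when factors come from promoter peaks.

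Thrb, the gene of thyroid hormone receptor β, was the member promoter that was lower in TEBs in both lineages. At chr14:17659706-17661514 it had 15.3, 11.3 and 26.6 CPM in basal TEB libraries, against 46.9 and 43.1 CPM in basal duct libraries (-1.35 ± 0.35, adjusted p = 0.000401). It had 17.3, 24.9 and 24.0 CPM in luminal TEB libraries, against 45.4, 43.3 and 35.2 CPM in luminal duct libraries (-0.91 ± 0.20, adjusted p = 0.000295). No TEB library reached any duct library in either lineage. In luminal cells it was the 1 member promoter peak of 50 that was lower, where 1.26% of all promoter peaks were, and 0 were higher, where 0.114% were (edgeR, and 0 also at an unadjusted p under 0.05 and by DESeq2, while 4 were lower without luminal TEB replicate 2). The luminal call held under every scaling tried and with each library left out. The basal call was lost without basal duct replicate 1 (-1.26, adjusted p = 0.113) and with factors from promoter peaks (-0.67, adjusted p = 0.136). The 2 effects did not differ past the threshold (interaction -0.37, adjusted p = 0.438), and Thrb did not differ past it between the lineages in ducts (0.06 ± 0.12) or TEBs (-0.31 ± 0.38).

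The bases before the RefSeq start of Thrb are printed because of this shared difference (GRCm38, chr14:17660710-17660895, plus strand, the 186 bases without annotated untranslated sequence). Capitals mark the 1 match to AGGTCA, the core that nuclear receptors bind, which occurred on either strand in 14% of the 32851 RefSeq promoters. That share was counted over 250 bases each, a longer stretch than the 186 printed.
Thrb promoter: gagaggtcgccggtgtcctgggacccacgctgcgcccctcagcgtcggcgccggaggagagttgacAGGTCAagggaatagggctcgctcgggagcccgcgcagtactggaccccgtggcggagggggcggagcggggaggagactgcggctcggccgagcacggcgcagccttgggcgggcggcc

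Apart from Thrb, 10 genes had a strongest promoter peak that was lower in basal TEB cells, and none of these was called in luminal cells. With Thrb they were 11 of 34 genes, near the 34.8% of all genes whose strongest promoter peak was lower. Less the median of all promoter peaks, the log2 fold changes of the 10 ran from -0.55 (Rarb) to -0.18 (Rarg). None of the 10 was called with factors from promoter peaks. Nr3c1 had the levels given above in basal TEB libraries, against 76.1 and 55.3 CPM in basal duct libraries (-1.16 ± 0.27, adjusted p = 0.00075). Nr4a2, which encodes NURR1, had 15.8, 21.5 and 26.6 CPM in basal TEB libraries, against 51.4 and 41.4 CPM in basal duct libraries (-1.12 ± 0.27, adjusted p = 0.00194). The Ppara levels in basal TEB libraries were also below both basal duct levels (-1.10 ± 0.30, adjusted p = 0.00284). Groups did not overlap for any of the 3 genes, and each call was lost without basal duct replicate 1 (adjusted p = 0.314 for Nr3c1, 0.293 for Nr4a2 and 0.36 for Ppara).

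Among the receptors that pair with or act as RXR, Rxra had 23.0, 23.5 and 11.1 CPM in basal TEB libraries, against 44.3 and 35.1 CPM in basal duct libraries (-1.05 ± 0.40, adjusted p = 0.00723). Rarb had 7.16, 5.09 and 10.2 CPM in basal TEB libraries, against 16.6 and 17.4 CPM in basal duct libraries (-1.19 ± 0.27, adjusted p = 0.00758). Rarg, the retinoic acid receptor prominent in skin, had 23.5, 23.5 and 28.8 CPM in basal TEB libraries, against 46.0 and 42.8 CPM in basal duct libraries (-0.81 ± 0.12, adjusted p = 0.0241). All basal TEB libraries lay under both basal duct libraries for these retinoid receptors. Rora had 16.4, 19.2 and 16.8 CPM in basal TEB libraries (-0.95 ± 0.13, adjusted p = 0.00926), below both of its basal duct levels.

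The oxysterol receptor gene Nr1h3 (LXRα) had 10.7, 9.78 and 7.98 CPM in basal TEB libraries, against 17.9 and 18.9 CPM in basal duct libraries (-0.95 ± 0.13, adjusted p = 0.0278). Nr2c1, the orphan receptor TR2, had 9.20, 15.7 and 18.6 CPM in basal TEB libraries, against 27.6 and 26.8 CPM in basal duct libraries (-0.89 ± 0.30, adjusted p = 0.0255). Thra had 13.8, 8.61 and 7.98 CPM in basal TEB libraries, against 20.1 and 17.3 CPM in basal duct libraries (-0.90 ± 0.27, adjusted p = 0.0469). Groups did not overlap here either. The calls of Rora, Rarb, Rarg, Rxra, Nr1h3, Nr2c1 and Thra were each lost without basal duct replicate 1 (adjusted p = 0.263 to 0.618, with log2 fold changes of -1.20 to -0.74, against -1.19 to -0.81 with it) and without basal duct replicate 3 (0.0671 to 0.314). Those of Nr1h3, Rxra and Thra were also lost without basal TEB replicate 3 (0.144, 0.119 and 0.24), that of Nr2c1 without basal TEB replicate 1 (0.111) and that of Thra without basal TEB replicate 2 (0.0719).

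Nr1d2 and Nr1h2, the gene of LXRβ, stood at the other side of the promoter median. Nr1h2 had 22.0, 28.2 and 23.9 CPM in basal TEB libraries, against 23.6 and 18.5 CPM in basal duct libraries (0.23 ± 0.22, adjusted p = 0.698), and these overlapped. Its log2 fold change was 0.87 above the promoter median, and that of Nr1d2 was 0.77 above it. Both were called higher in basal TEB cells with factors from promoter peaks (0.79 for Nr1d2 and 0.89 for Nr1h2), with loess offsets (0.52 and 0.79), with GC-bin factors (0.84 and 0.73) and with low-count peaks filtered (0.55 and 0.65), but not under TMM over all peaks. The remaining 21 strongest promoter peaks had log2 fold changes of -0.77 (Nr2f1) to 0.09 (Rxrg). The strongest promoter peaks of Rara, Rxrb, Rxrg, Pparg, Nr1h2, Nr2c2, Nr2f2, Nr2f6, Esrrb and Nr3c2 passed the threshold in none of the 4 pairs of groups. Weaker promoter peaks were lower in basal TEB than in basal duct cells at Rara (3 peaks), Nr2f2 (1) and Nr3c2 (1).

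**Figure D3:**
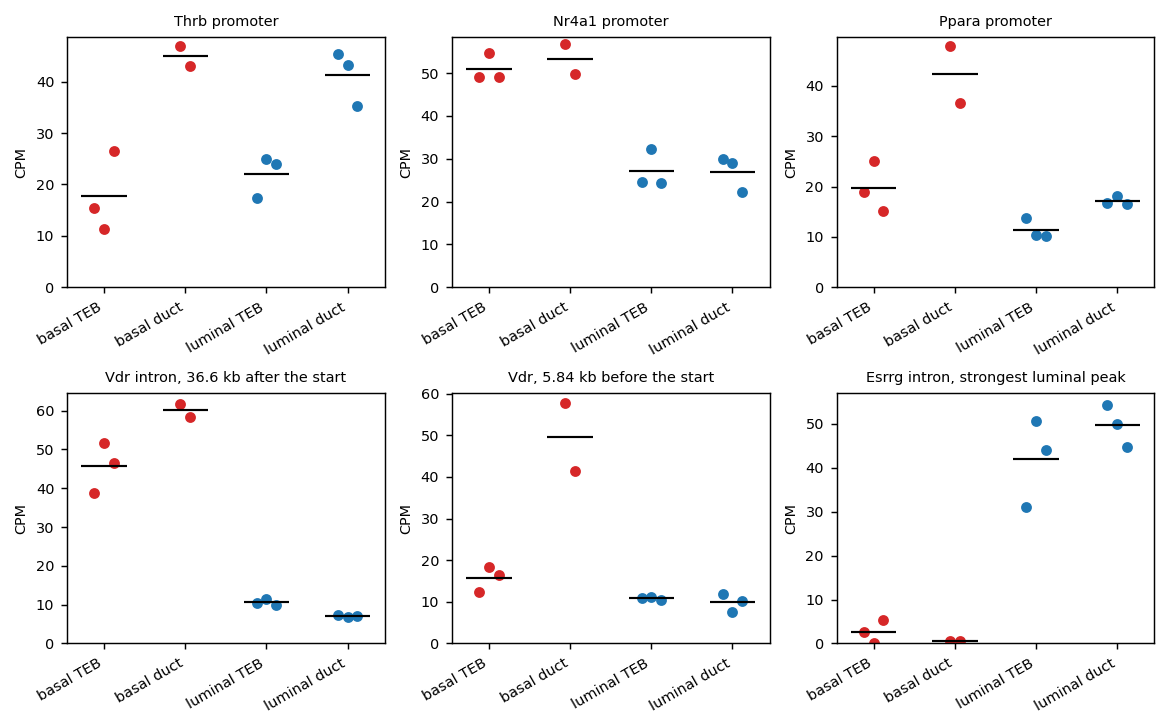
CPM (y axis, linear from 0) of 3 promoter peaks and 3 other peaks in each library (points) with the group mean (bars), for basal TEB, basal duct, luminal TEB and luminal duct cells. Thrb was lower in both TEB groups, Nr4a1 and the Vdr intron peak at 36.6 kb differed by lineage in both structures, the Vdr peak 5.84 kb before the start stood out in basal ducts, and the Esrrg peak was near 0 in basal cells.

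Away from promoters, member peaks split into strong lineage differences of both signs, often within 1 gene. In ducts, 107 of 353 other peaks (30.3%) were higher in basal than in luminal cells, where 31.2% of all other gene-linked peaks were higher, and 151 (42.8%) were lower, where 39.6% were. In TEBs 52 (14.7%) were higher in basal than in luminal cells, where 16.8% of all were, and 86 (24.4%) were lower, where 22.6% were. These shares were near the background in both structures, and the split in ducts was 76 and 165 with factors from promoter peaks. Peaks higher in basal cells of both structures numbered 41 (of 107 in ducts and 52 in TEBs), peaks lower in both numbered 76 (of 151 and 86), and 4 were called in opposite directions. Such shared calls were not counted over all other gene-linked peaks, so these numbers have no background beside them. In ducts 31 genes had a called other peak and 18 had calls of both signs.

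**Figure D4:**
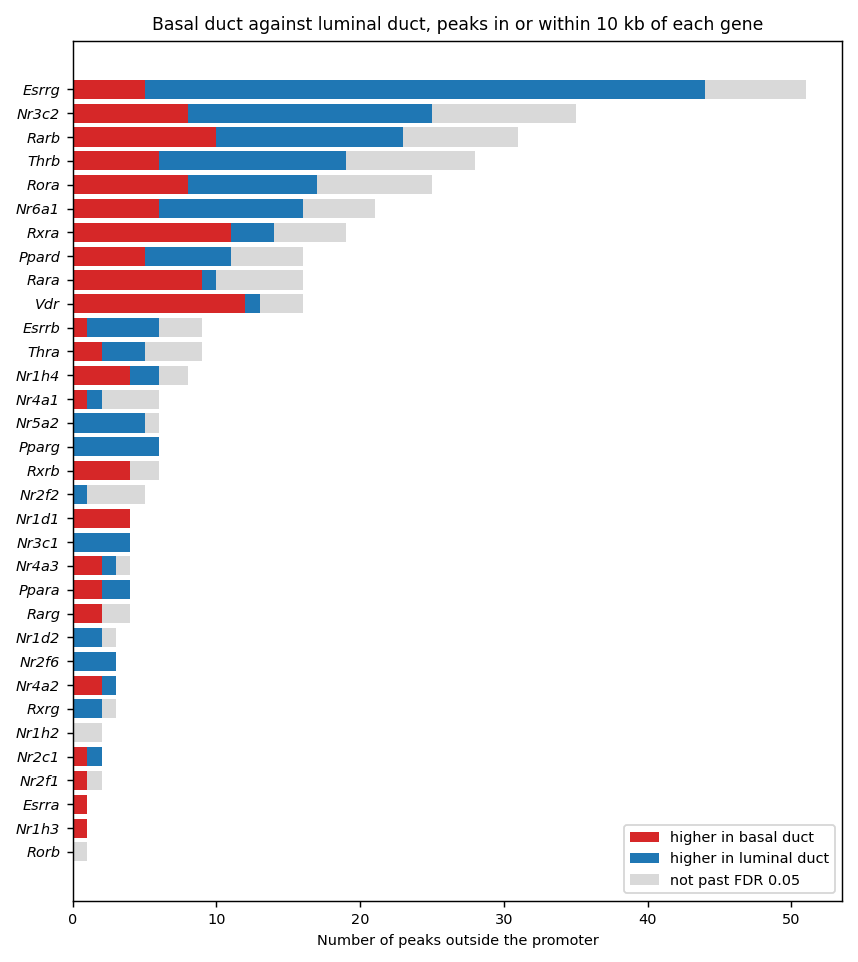
Number of other peaks per gene (x axis) called higher in basal duct cells (red), higher in luminal duct cells (blue) or not past FDR 0.05 (grey), for the 33 genes with such a peak. Vdr, Rara and Rxra were mostly red, and Esrrg, Pparg, Nr5a2 and Nr3c1 were mostly or wholly blue.

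Vdr, the vitamin D receptor gene, had its other peaks mostly on the basal side, with 12 of 16 higher and 1 lower against luminal cells in ducts, and 6 higher and 2 lower in TEBs. Over all other gene-linked peaks 31.2% were higher and 39.6% lower in ducts, and 16.8% and 22.6% in TEBs. The strongest of these Vdr peaks lay in an intron 36.6 kb after the start (chr15:97870871-97872526), nearer to the start of Hdac7. It had 61.8 and 58.4 CPM in basal duct libraries, against 7.21, 6.90 and 7.09 CPM in luminal duct libraries (3.02 ± 0.04, adjusted p = 9.67e-57). In end buds it had 38.9, 51.7 and 46.5 CPM in basal TEB libraries, against 10.4, 11.5 and 9.88 CPM in luminal TEB libraries (2.11 ± 0.14, adjusted p = 6.77e-14). The separation was complete in both structures and exceeded that of the Vdr promoter itself, which had 55.1 and 49.6 CPM in basal duct libraries, against 27.8, 31.0 and 28.8 CPM in luminal duct libraries (0.78 ± 0.08, adjusted p = 2.24e-06). A smaller intron peak 7.63 kb after the start (chr15:97900413-97900952) had 16.4, 16.8 and 9.75 CPM in basal TEB libraries, against 1.37, 0.273 and 1.32 CPM in luminal TEB libraries (3.82 ± 0.43, adjusted p = 3.04e-14). That peak was close to closed in all luminal libraries.

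The central 300 bases of both Vdr intron peaks are printed because they were among the member peaks that differed most between basal and luminal cells (GRCm38, plus strand, chr15:97871549-97871848 and chr15:97900533-97900832). Capitals mark AGGTCA, found once in each. Over the central 300 bases of all 80867 other gene-linked peaks, 19.4% held it on either strand.
Vdr intron peak, 36.6 kb after the start: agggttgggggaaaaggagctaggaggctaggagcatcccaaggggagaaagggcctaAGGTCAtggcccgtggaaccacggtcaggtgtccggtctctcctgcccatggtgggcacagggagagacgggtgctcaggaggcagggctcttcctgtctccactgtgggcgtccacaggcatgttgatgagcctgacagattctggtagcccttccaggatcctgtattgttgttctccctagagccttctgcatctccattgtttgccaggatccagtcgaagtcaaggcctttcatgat
Vdr intron peak, 7.63 kb after the start: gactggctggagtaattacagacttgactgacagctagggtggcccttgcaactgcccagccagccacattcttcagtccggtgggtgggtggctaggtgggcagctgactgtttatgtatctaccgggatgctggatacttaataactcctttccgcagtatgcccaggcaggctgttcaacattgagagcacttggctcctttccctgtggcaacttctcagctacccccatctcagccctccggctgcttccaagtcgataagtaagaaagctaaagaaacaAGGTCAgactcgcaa

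Retinoid receptor genes also leaned to the basal side, with 36 of 79 other peaks higher and 19 lower in basal ducts. Over all other gene-linked peaks 31.2% were higher and 39.6% lower. The median log2 fold change was 0.71 at the retinoid receptor genes and -0.20 over all other gene-linked peaks. Rara, the most widely expressed retinoic acid receptor, had 9 of 16 higher and 1 lower, and Rxra, the common heterodimer partner, 11 of 19 higher and 3 lower. Rarb, itself a retinoic acid target, was mixed, with 10 of 31 higher and 13 lower. Rxrb had 4 of 6 higher, Rarg 2 of 4 higher, and Rxrg 2 of 3 lower. The strongest Rara example was an exon peak (chr11:98969667-98970583) with 22.2 and 21.6 CPM in basal duct libraries, against 1.27, 1.87 and 1.5 CPM in luminal duct libraries (3.73 ± 0.13, adjusted p = 6.88e-38). In end buds it had 13.8, 12.9 and 15.5 CPM in basal TEB libraries, against 2.20, 1.91 and 3.62 CPM in luminal TEB libraries (2.46 ± 0.24, adjusted p = 8.66e-09). No basal library came near a luminal one at this exon.

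The estrogen-related receptors, orphan regulators of energy metabolism, leaned to the luminal side, with 44 of 61 other peaks lower and 7 higher in basal ducts. Over all other gene-linked peaks 39.6% were lower and 31.2% higher. The median log2 fold change was -2.70, against -0.20 over all. Nearly all of the called receptor peaks belonged to Esrrg, with 39 of its 51 lower and 5 higher between the ducts. Between the TEBs 20 were lower and 4 higher, where 22.6% of all other gene-linked peaks were lower and 16.8% higher. The strongest luminal peak lay in an intron 98.1 kb before the nearest start of the gene (chr1:187899382-187900006). It had 0.570 and 0.462 CPM in basal duct libraries, against 54.3, 50 and 44.7 CPM in luminal duct libraries (-6.57 ± 0.12, adjusted p = 1.72e-94). In end buds it had 2.56, 0 and 5.32 CPM in basal TEB libraries, against 31.0, 50.5 and 44.1 CPM in luminal TEB libraries (-4.02 ± 0.95, adjusted p = 2.54e-24). Basal duct libraries held 5 and 3 reads there, so the size of the fold change is loosely set. A second intron peak 15.2 kb after a start (chr1:187623920-187624582) had 0.684 and 1.39 CPM in basal duct libraries, against 28, 29.9 and 14.8 CPM in luminal duct libraries (-4.65 ± 0.50, adjusted p = 5.32e-44). The Esrrg promoter did not follow these peaks: it had 16.3 and 14.8 CPM in basal duct libraries, against 9.33, 8.58 and 9.46 CPM in luminal duct libraries (0.71 ± 0.07, adjusted p = 0.00204). Esrrb had 5 of 9 other peaks lower and 1 higher in basal ducts, and Esrra had a single other peak, which was higher.

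The centre of the strongest Esrrg peak is shown because no other member peak had a smaller p between ducts (GRCm38, chr1:187899545-187899844, plus strand). Capitals mark a match to TGTTTAC, a core bound by FOX factors, and a match to GGAATG on the other strand.
Esrrg intron peak, 98.1 kb before a start: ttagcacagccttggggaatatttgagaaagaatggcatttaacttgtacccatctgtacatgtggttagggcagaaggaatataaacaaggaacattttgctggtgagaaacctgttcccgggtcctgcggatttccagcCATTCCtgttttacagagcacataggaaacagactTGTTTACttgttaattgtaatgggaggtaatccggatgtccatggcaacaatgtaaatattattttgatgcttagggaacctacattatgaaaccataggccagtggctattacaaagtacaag

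**Figure D5:**
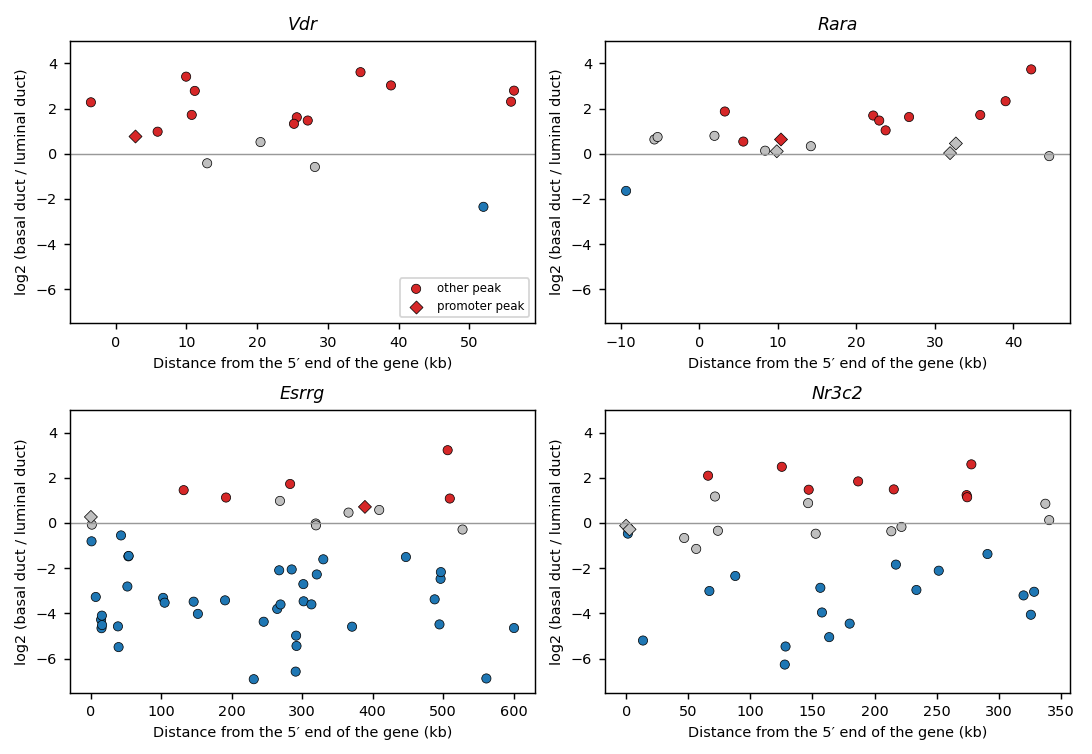
Log2 of basal duct over luminal duct (y axis) at each peak of Vdr, Rara, Esrrg and Nr3c2 against its distance from the 5′ end of the gene in kb (x axis), with circles for other peaks, diamonds for promoter peaks, red for higher and blue for lower in basal duct cells past FDR 0.05, and grey for the rest. Vdr and Rara lay mostly above 0, and Esrrg and Nr3c2 had blue peaks along the whole gene while their promoter peaks stayed near or above 0.

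Corticosteroid receptor genes had 21 of 39 other peaks lower and 8 higher in basal duct cells (median -1.15), where 39.6% of all other gene-linked peaks were lower and 31.2% higher (median -0.20). At Nr3c2, the mineralocorticoid receptor gene, 17 of 35 were lower and 8 higher. Its strongest such peak lay in an intron 4.71 kb after a start (chr8:76912482-76913473), with 1.37 and 0.770 CPM in basal duct libraries, against 36.3, 47.0 and 35.7 CPM in luminal duct libraries (-5.20 ± 0.33, adjusted p = 6.39e-74). The same peak had 3.58, 3.13 and 2.22 CPM in basal TEB libraries, against 31.3, 36.1 and 35.6 CPM in luminal TEB libraries (-3.51 ± 0.17, adjusted p = 2.25e-22). Basal and luminal libraries were far apart in both structures, whereas the strongest Nr3c2 promoter peak had 77.0 and 71.2 CPM in basal duct libraries, against 87.8, 94.6 and 76.7 CPM in luminal duct libraries (-0.28 ± 0.10, adjusted p = 0.0773). All 4 other peaks of Nr3c1 were lower in basal duct cells.

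The PPAR genes had 14 of 26 other peaks lower and 7 higher in basal duct cells (median -1.53, all other gene-linked peaks -0.20). Over all other gene-linked peaks 39.6% were lower and 31.2% higher. The lower ones included all 6 of Pparg, the receptor that drives fat cell differentiation, and 5 of 6 other peaks of Nr5a2 were lower as well. Ppard, the broadly expressed PPAR, was mixed, with 5 of 16 higher and 6 lower, near the shares over all other gene-linked peaks. Its clearest basal peak lay 7.88 kb before the start (chr17:28224673-28224978), with 13.3, 15.3 and 12.9 CPM in basal TEB libraries, against 1.65, 0.820 and 0.659 CPM in luminal TEB libraries (3.65 ± 0.25, adjusted p = 6.60e-14). The ducts gave nearly the same levels, at 13.2 and 12.2 CPM in basal duct libraries, against 0.636, 2.43 and 1.29 CPM in luminal duct libraries (3.02 ± 0.44, adjusted p = 2.87e-20). Ppara had 2 of 4 higher and 2 lower.

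The clock-linked receptors had 12 of 33 other peaks higher and 11 lower in basal duct cells, near the shares over all other gene-linked peaks, with 8 and 9 of 25 at Rora, all 4 of Nr1d1 higher and 2 of 3 of Nr1d2 lower. A Rora exon peak 72.4 kb after a start (chr9:69361621-69362616), nearest to the start of Ice2, had 22.1 and 22.8 CPM in basal duct libraries, against 2.33, 1.87 and 1.07 CPM in luminal duct libraries (3.59 ± 0.28, adjusted p = 2.46e-37). In end buds it had 5.62, 7.44 and 9.75 CPM in basal TEB libraries, against 2.47, 3.55 and 2.31 CPM in luminal TEB libraries (1.44 ± 0.27, adjusted p = 0.00463). Groups did not overlap in either structure. Chosen after its values were seen, an intron peak of Nr1d1 (chr11:98772643-98773218) was among the 4 called in opposite directions: it had 44.6 and 44.8 CPM in basal duct libraries, against 32.4, 31.5 and 30.3 CPM in luminal duct libraries (0.45 ± 0.03, adjusted p = 0.00849), and 12.3, 22.3 and 19.5 CPM in basal TEB libraries, against 26.6, 36.6 and 27.0 CPM in luminal TEB libraries (-0.72 ± 0.30, adjusted p = 0.0238). Nr1h4, Nr3c1 and Ppard held the other 3.

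Of the remaining genes, Thrb had 13 of 28 other peaks lower and 6 higher in basal ducts, and Thra 3 of 9 lower and 2 higher. Over all other gene-linked peaks 39.6% were lower and 31.2% higher. Nr6a1 had 10 of 21 lower and 6 higher, and the bile acid receptor gene Nr1h4 (FXR) 4 of 8 higher and 2 lower. Nr2f6, an orphan receptor of the COUP family, had all 3 lower. An exon peak there (chr8:71375357-71376053, 6.25 kb after the start and nearest to Ocel1) had 2.04, 5.87 and 8.42 CPM in basal TEB libraries, against 36.2, 37.7 and 35.2 CPM in luminal TEB libraries (-2.69 ± 0.53, adjusted p = 6.69e-16). In ducts it had 16.2 and 14.5 CPM in basal libraries, against 36.3, 44.8 and 31.2 CPM in luminal libraries (-1.35 ± 0.16, adjusted p = 1.30e-12). Both pairs were separate, and basal TEB was the lowest of the 4 groups. Nr4a1, Nr4a2 and Nr4a3 had 13 other peaks between them (5 higher and 3 lower), Nr2f1 and Nr2f2 had 7 (1 higher and 1 lower), Nr2c1 had 1 of each sign, Nr1h3 had 1, which was higher, and none was called at Nr1h2 or Rorb.

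Between TEB and duct in basal cells, 36 of 353 other peaks (10.2%) were lower in basal TEB, where 7.19% of all other gene-linked peaks were, and 18 (5.10%) were higher, where 6.48% were. With factors from promoter peaks the split was 31 higher and 6 lower. Without basal duct replicate 1 there was 1 call (lower), and without basal duct replicate 3 there were 15. An intron peak of Ppard 3.86 kb after a start (chr17:28236318-28236960) had 3.07, 2.35 and 5.32 CPM in basal TEB libraries, against 16.0 and 17.9 CPM in basal duct libraries (-2.24 ± 0.31, adjusted p = 2.15e-06), the 1 call that remained without basal duct replicate 1. The Vdr peak 5.84 kb before the start (chr15:97913503-97914803) had 12.3, 18.4 and 16.4 CPM in basal TEB libraries, against 57.7 and 41.4 CPM in basal duct libraries (-1.65 ± 0.31, adjusted p = 3.31e-06). Luminal TEB and luminal duct libraries both had 7.65 to 11.9 CPM there, so basal ducts stood alone. An intron peak of Rara (chr11:98963207-98964043) had 6.65, 10.6 and 4.88 CPM in basal TEB libraries, against 25.9 and 21.6 CPM in basal duct libraries (-1.67 ± 0.34, adjusted p = 6.07e-05), and 5.93 to 8.23 CPM in all luminal libraries. Without basal duct replicate 1 the adjusted p was 0.0696 for Vdr and 0.0999 for Rara. Rara had 6 of the 36 lower peaks and Rxra 5. These comparisons share the basal duct libraries with those between ducts.

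Peaks that were higher in basal TEB cells were narrow and weak. Their median width was 232 bp, against 682 bp for the 36 lower ones, and the median of their mean levels was 4.05 CPM in basal TEB and 0.889 CPM in basal duct cells. Over 50% of the bases were soft-masked repeats in 5 of the 18, in 0 of the 36 and in 9 of all 353, while 6.32% of all other gene-linked peaks had such a share. Soft-masked peaks took 7.03% to 16.2% of the counts of basal TEB libraries and 2.40% and 2.45% of those of basal duct libraries, and their part in these calls was not tested. Esrrg held 3 of the 18, among them an intron peak (chr1:187927901-187928311) with 7.16, 16.4 and 8.86 CPM in basal TEB libraries, against 2.17 and 3.85 CPM in basal duct libraries (1.89 ± 0.49, adjusted p = 0.000872). Its neighbour at chr1:187928415-187928598 had 4.60, 1.96 and 5.76 CPM in basal TEB libraries, against 0.342 and 0.616 CPM in basal duct libraries (3.05 ± 0.46, adjusted p = 0.00226). A peak 8.88 kb after a start of Nr4a1 (chr15:101275621-101275834, nearest to Atg101) had 9.71, 3.91 and 11.1 CPM in basal TEB libraries, against 2.51 and 1.54 CPM in basal duct libraries (1.96 ± 0.53, adjusted p = 0.00154). Groups did not overlap at any of the 3. All were lost without basal duct replicate 1 (adjusted p = 0.285, 0.296 and 0.111), and the second Esrrg peak and the Nr4a1 peak also without basal duct replicate 3 (0.0838 and 0.21).

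In luminal cells 2 other peaks were higher in TEBs (0.567%, where 0.334% of all were) and 1 was lower (0.283%, where 0.287% were). A Rarb intron peak (chr14:16512888-16513942) had 6.04, 13.7 and 8.23 CPM in luminal TEB libraries, against 3.60, 4.29 and 4.94 CPM in luminal duct libraries (1.12 ± 0.35, adjusted p = 0.0342). An Rxra intron peak (chr2:27745915-27746337) had 8.78, 7.10 and 6.92 CPM in luminal TEB libraries, against 4.88, 3.17 and 1.93 CPM in luminal duct libraries (1.19 ± 0.35, adjusted p = 0.04). An intron peak of Nr3c2 nearest to Arhgap10 (chr8:77227725-77228091) had 2.47, 3.83 and 3.62 CPM in luminal TEB libraries, against 7.63, 6.72 and 7.74 CPM in luminal duct libraries (-1.15 ± 0.18, adjusted p = 0.0486). No groups overlapped, yet these calls were close to the threshold, and leaving out any 1 library left 0 or 1 of the 3. The Rarb call was lost without luminal TEB replicate 2 (adjusted p = 0.374) or 3 (0.0834) or luminal duct replicate 1 (0.189) or 2 (0.136), the Rxra call without any luminal TEB library (0.0572 to 0.257) or luminal duct replicate 2 (0.18) or 3 (0.197), and the Nr3c2 call without any 1 of the 6 libraries (0.0646 to 0.365).

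Whether TEB and duct differed by another amount in basal than in luminal cells was tested as an interaction over 11 libraries, for the 48 member promoter peaks and 303 other peaks that passed a filter on low counts. It was negative at 6 promoter peaks (12.5%, where 13.9% of all were) and positive at 0 (where 1.08% were, with 1 at an unadjusted p under 0.05 in edgeR). It was positive at 18 other peaks (5.94%, where 6.97% of all were) and negative at 24 (7.92%, where 5.4% were). Without basal duct replicate 1 these counts were 0 for promoter peaks and 15 for other peaks, and promoter counts were 2 without any 1 luminal duct library or luminal TEB replicate 2 and 3 without luminal TEB replicate 1. The negative promoter peaks were at Rxra, Nr4a2, Rarb and, not the strongest of their genes, at Rara, Rarg and Nr2f2. Among the other peaks described above, the interaction was -1.72 at the Vdr peak before the start (adjusted p = 0.000436), -2.01 at the Ppard intron peak (0.00128), -1.70 at the Rara intron peak (0.00348) and -2.13 at the Rora exon peak (0.00509). It was positive at the luminal peaks of Esrrg (2.53, adjusted p = 0.0135) and Nr3c2 (1.68, adjusted p = 0.0251). The difference at the Rora exon peak, for example, was -1.55 ± 0.21 between basal TEB and basal duct cells (adjusted p = 0.000148) and 0.66 ± 0.30 between luminal TEB and luminal duct cells (adjusted p = 0.648).

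Motif matches were counted on both strands in the central 300 bases of each peak, without removing overlaps between motifs. TGTTTAC (FOX) was in 2.80% of the 107 member other peaks higher in basal duct cells and in 13.9% of the 151 lower ones, and over all other gene-linked peaks these shares were 2.55% and 12.9%. TGANTCA (AP-1) was in 24.3% and 32.5% of the members' peaks, where all peaks had 21.9% and 37.2%. GGAATG (TEAD) was in 28% and 23.2%, where all had 28% and 18.9%. AGGTCA was in 19.6% and 23.2%, where all had 16.8% and 22.7%, and in 10% of the 50 member promoter peaks, where 11.3% of all promoter peaks held it. CACGTG (E-box) was in 8.41% and 3.97%, where all had 4.9% and 4.17%, and in 10% of the 50 member promoter peaks and in 7.32% of all. AGGTCA repeats with a spacing of 1 to 5 bases, the cyclic AMP response element and the glucocorticoid response element, the last 2 searched as full palindromes, were in at most 1 member peak of either class.

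Genes that act with the receptors are given by their strongest promoter peaks. Of 17 coregulator genes, 10 were lower and 0 higher in basal TEB than in basal duct cells (median -0.95, all genes -0.65), where 34.8% of all genes were lower and 0.564% higher, among them the corepressor gene Ncor1 (-1.09, adjusted p = 0.00248) and the coactivator gene Ncoa1 (-1.20, adjusted p = 0.00141). In ducts 8 were higher and 1 lower in basal than in luminal cells, shares near the 43.2% and 11.1% of all genes, the lower being Ppargc1a, the coactivator PGC-1α. Of 23 genes that make, carry or break down receptor ligands, 18 had a promoter peak, and 15 of these were higher and 0 lower in basal than in luminal cells of the ducts (median 0.96, all genes 0.30), against the same 43.2% and 11.1%. They included the retinoic acid synthesis gene Aldh1a2 (1.79, adjusted p = 9.3e-11), the retinoic acid carrier gene Crabp2 (1.69, adjusted p = 9.08e-11) and the thyroid hormone activating enzyme gene Dio2 (1.70, adjusted p = 3.04e-11). Between basal TEB and basal duct cells 7 of the 18 were lower and 0 higher, near the 34.8% of all genes, and between basal TEB and luminal TEB cells 4 were higher and 1 lower, where 9.32% of all genes were higher and 14.9% lower. Of 20 known target genes, 9 were lower in basal TEB than in basal duct cells, where 34.8% of all genes were, and in ducts 7 were higher in basal than in luminal cells, a smaller share than the 43.2% of all genes, while 3 were lower, among them Tgm2 and Scnn1a. Of the markers given above, all 4 fibroblast, both endothelial, both Schwann, the 1 adipocyte and 1 of 2 pericyte promoters were also higher in basal than in luminal duct cells, where 43.2% of all genes were. Of the 2 immune promoters, Coro1a was higher (1.04) and Csf1r lower (-2.63). The part of these marker cell types was not tested. Of 15 further nuclear receptor genes, 7 had a promoter peak, and Esr1 and Pgr were lower in basal TEB than in basal duct cells. All values of these lists rest on TMM over all peaks, which placed the median of all promoter peaks at -0.64 between basal TEB and basal duct cells and at 0.35 between basal and luminal duct cells, and they were not recomputed under other scalings.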

How the data were processed

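ATAC-seq libraries of 4 groups were analysed from raw counts of reads in merged peaks, as deposited by the authors. Per the study's methods and the submitters' processing notes, the authors trimmed adapters, aligned reads to mm10 with Bowtie2 (2.3.4.3 in the notes), removed duplicates, called peaks with MACS2 on pooled replicates of each population, merged them, removed blacklisted regions and counted reads in SeqMonk. Pooled calling means that a peak need not have been found in each library.

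Peaks were linked to protein-coding genes of GENCODE vM21 basic (41421 TSSs). For each of 4 pairs of groups, every peak that held a read in at least 1 of its libraries (153358 to 153396 peaks) was tested with the exact test of edgeR 4.0.16 (R 4.3.3), with TMM factors and dispersions from the pair and Benjamini-Hochberg adjustment over all peaks at FDR 0.05. Standard errors were taken over log2 CPM values (prior count 2). The interaction used edgeR's quasi-likelihood test over 11 libraries after filterByExpr. Alternatives were DESeq2 1.42.0 with its own size factors, those size factors in edgeR, factors from promoter peaks, loess offsets (span 0.3), factors within 20 GC bins, a low-count filter, a replicate block, a promoter window of 1000 bp, gene bodies alone, and each library left out. For the pairs, the loess, GC-bin and block settings used the quasi-likelihood test, so the test changed along with the setting. That test with TMM factors alone ended 1 of the named calls. Scripts ran in Python 3.11.15 with pandas 2.3.3, and the exact test was run on simulated data with 50 peaks changed at each fold. Of 2-fold changes, 2 of 50 were recovered in each direction between basal TEB and basal duct libraries. Between basal TEB and luminal TEB libraries 0 of 50 increases and 1 of 50 decreases were recovered, and in the other pairs 10 to 24 of 50. The changed peaks had at least the median count, no other peak was changed, and all peaks shared a single dispersion. In the real data 12605 peaks were called higher and 14924 lower between basal TEB and basal duct cells. With so many more calls the adjustment is less strict, so the simulated shares do not give the power in the real data. P-values measure the spread between these libraries, whose animals the labels do not give.

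Values per library are given for the strongest promoter peaks with the 4 smallest p per direction in a pair or past the threshold between TEB and duct, and for the 3 other peaks with the smallest p per direction in each pair. Members and lists were chosen with earlier results of these data known. RefSeq promoters (GRCm38) matched 32 of 34 members. A pooled count matrix with the same values as the library files was not used. Some genes of the comparison lists are not reported here.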

Additional observations from a re-analysis of the deposited data

Results flagged for a closer look

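Each value here marks a difference between TEB and duct that was not the same in basal and luminal cells by the interaction test (edgeR quasi-likelihood, log2 scale, basal difference minus luminal difference, FDR 0.05 over all tested peaks). There were 6 such promoter peaks of 48 tested and 42 such other peaks of 303. The promoter values were all negative, so TEB was lower against duct in basal than in luminal cells: Nr2f2 had -1.75, Rara -1.24, Rarb -1.17, Rxra -0.91, Rarg -0.87 and Nr4a2 -0.86. With factors from promoter peaks the promoter calls were 1 positive and 1 negative.

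Negative values were also found at other peaks described in the text. Rora had -2.13, Ppard -2.01, Vdr -1.72 before the start and -0.90 in the intron 36.6 kb after it, Rara -1.70, Rarb -1.63, Rxra -1.51 and Nr2f6 -1.34. At Rarb, Rxra and the Vdr intron peak the luminal difference was the larger of the pair, with 1.12, 1.19 and 0.59 between luminal TEB and luminal duct cells. The positive values were 2.53, 1.90 and 1.66 at 3 peaks of Esrrg, 2.46 at Nr4a1 and 1.68 at Nr3c2, all at peaks with a low level in basal duct cells.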

How the results depend on the processing

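Calls between basal TEB and basal duct cells depended most on the processing. The 18 member promoter calls became 3 with factors from promoter peaks, 10 with low-count peaks filtered, 8 with loess offsets, 4 with GC-bin factors, 9 with DESeq2 and 0 to 18 with a library left out. The 54 other-peak calls became 29 with the filter, 23 with DESeq2 and 1 to 66 with a library left out. Between luminal TEB and luminal duct cells the 1 promoter call became 4 with a replicate block and 1 to 4 with a library left out, and the 3 other-peak calls became 5 with the filter, 7 with the block, 1 with DESeq2 and 0 to 1 with a library left out. Between basal TEB and luminal TEB cells the 9 promoter calls became 5 with DESeq2 and 2 to 9 with a library left out. The interaction gave 2 promoter calls in place of 6 with DESeq2's size factors, with factors from promoter peaks or with loess offsets, and 0 to 8 with a library left out, while its 42 other-peak calls became 15 to 62. The cause of these changes was not tested, beyond that fewer libraries were fitted. The remaining counts stayed within 1.5 times. For the 46 peak results named in the text, 0 reversed under any alternative. DESeq2 ended 14 of the calls, factors from promoter peaks 13, GC-bin factors 12, loess offsets 11, the filter 9 and DESeq2's size factors 5.

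Replicates with the same number correlated at -0.036 to 0.079 over 15 pairs, against -0.057 to 0.046 over 30 pairs with different numbers. Between luminal duct and luminal TEB libraries, same-numbered pairs had 0.038, 0.079 and 0.058, and pairs with different numbers had -0.057 to 0. The labels give no pairing, so the main tests did not use the numbers. Whether these luminal libraries share animals was not tested. With the replicate block in the quasi-likelihood fit the counts of promoter and other calls were 18 and 49 between TEB and duct in basal cells, 4 and 7 between them in luminal cells, 8 and 121 between the lineages in TEBs, 26 and 241 between the lineages in ducts, and 6 and 40 for the interaction. The block ended 1 of the named calls, that of Thra between basal TEB and basal duct cells (log2 fold change -0.81). Basal TEB libraries held fewest reads, with a median of 5 at other member peaks, which limits what could be detected there.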

Other observations

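Second promoter peaks of 2 members, chosen after their values were seen, were lower in basal TEB than in basal duct cells. The second Rara promoter peak (chr11:98959498-98960056) had 4.60, 7.44 and 8.86 CPM in basal TEB libraries, against 21.3 and 19.4 CPM in basal duct libraries (-1.53 ± 0.28, adjusted p = 0.000312), and all luminal libraries had 15.5 to 20 CPM. The second Nr2f2 promoter peak (chr7:70359945-70360296) had 2.56, 2.35 and 5.76 CPM in basal TEB libraries, against 12 and 9.40 CPM in basal duct libraries (-1.59 ± 0.41, adjusted p = 0.00384). It was the 1 promoter peak called in opposite directions between lineages, lower in basal than in luminal TEB cells (-1.08, adjusted p = 0.0402) and higher in basal than in luminal duct cells (0.68, adjusted p = 0.011).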
